A study of Arabidopsis thaliana with 2 samples.

Results

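Ribonucleotide reductase makes the deoxynucleotides that DNA synthesis consumes, and the replicative helicase opens the duplex ahead of the polymerases. Ribonucleotide reductase is built from a large catalytic subunit and a small subunit that carries the radical needed for the reaction. In the helicase, the MCM2 to MCM7 ring works together with CDC45 and the GINS complex, and MCM10 takes part in switching it on. SOG1 is the plant NAC transcription factor through which much of the transcriptional response to DNA breaks runs.

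The 8 genes described here were chosen by locus. The nucleotide supply genes were TSO2 (AT3G27060) and RNR2A (AT3G23580), both small subunits of ribonucleotide reductase, and RNR1 (AT2G21790), its large subunit. The 5 helicase genes were CDC45 (AT3G25100), MCM2 (AT1G44900), MCM5 (AT2G07690), MCM10 (AT2G20980) and ETG1 (AT2G40550), a replisome factor that binds the MCM complex. A gene counted as named when its locus stood in the longest-transcript column of the deposited SOG1-Myc peak list, which holds 778 peaks and names 1513 loci. TSO2, RNR1 and CDC45 were named, each at 1 peak, and the other 5 were not.

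The peaks came from chromatin immunoprecipitation with sequencing (ChIP-seq), in which DNA fragments held by a tagged protein are pulled down and read. The tagged library was from Col-0 carrying ProSOG1:SOG1-Myc, so SOG1-Myc was driven by the SOG1 promoter in a wild-type background. The plants were 2 weeks old, taken whole, given 15 µM zeocin, which breaks DNA, for 2 h, and precipitated with an anti-Myc antibody. The comparison library was from untagged Col-0 of the same age, labelled mock, with the same antibody. The protocol text attached to both samples mentions zeocin, so the treatment of the untagged plants rests on that label. The sources used here do not state how many plants were pooled or how many transgenic lines were used. Each group had 1 library, the peak list covers the tagged library alone, and by the labels tag and drug differ together between the groups, so their parts cannot be told apart and no test between conditions was possible. Total library depth is unknown, and the peaks together held 78249 reads.

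Among the members, nucleotide supply genes were named at peaks of high fold enrichment and the helicase gene at a short peak of middling fold enrichment and few reads. Of the 3 ribonucleotide reductase genes, 2 were named, and of the 5 helicase genes, 1 was. The count of 3 of 8 members stands beside 4.99% of all 27444 protein-coding loci named at a peak. The members were chosen with earlier results from this list known, so the difference between these shares was not tested. All 3 peaks also named other loci, and the list does not say which of them a peak belongs to.

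TSO2 is the small subunit gene whose mutation disturbs leaf and flower development. Its peak lay at chromosome 3, 9979362 to 9981857 (TAIR10), and the authors gave it a length of 2495 bp, a fold enrichment of 11.05 and a Decibel Score of 1815. It held 572 reads, with an exact 95% Poisson interval of 526 to 621 that covers counting error only. By Decibel Score this was the highest peak of the list, and no peak had more reads. A peak on the same chromosome that names AT3G45730 and AT3G45740 had the same 572 reads over 3293 bp and the next highest score, 1756.

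In fold enrichment TSO2 ranked 18 of 778 and in length 16. Scaled to length it held 229 reads per kb (interval 211 to 249), and only the peak that names COM1 (AT3G52115), a gene of DNA end processing, was denser, at 269 reads per kb. Read count follows length closely over the 778 peaks (Spearman's rho 0.95, a description, since both are read off the same peak edges). Among the 15 other peaks whose length was within 10% of that of TSO2, reads ran from 224 to 493 with a median of 270.0. Since no peak of the list had more reads than TSO2, its place above them was given by its rank. The loci AT3G27040 and AT3G27050 were named at the same peak.

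RNR1, the catalytic subunit and the partner of TSO2 in the enzyme, had a peak well above the list's median of 4.33-fold. It lay at chromosome 2, 9292509 to 9293836 (TAIR10), over 1327 bp, with 178 reads (exact Poisson interval 153 to 206), a fold enrichment of 6.16 and a Decibel Score of 159.8. Its rank was 95 by fold enrichment, 75 by reads, 112 by length, 48 by reads per kb and 129 by score. The 47 other peaks within 10% of its length had a median of 137 reads, and 10 of them had more reads than RNR1. The gene is entered in the list under its older symbol R1. The other gene named there was EME1A (AT2G21800), a subunit of a DNA structure-specific endonuclease, so this peak stands beside a replication gene and a recombination gene at once.

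CDC45, which travels with the MCM ring as part of the active helicase, was named at one of the smallest peaks. It lay at chromosome 3, 9143581 to 9144110 (TAIR10), with a length of 530 bp, 43 reads (exact Poisson interval 31.1 to 57.9), a fold enrichment of 4.25 and a Decibel Score of 58.9. In the whole list 4 peaks had fewer reads and 3 were shorter. By fold enrichment the peak was near the middle, at rank 403, a value it shared with 11 other peaks, while by score it ranked 611. The lowest read count in the list was 39 and the shortest peak 472 bp. The 15 other peaks within 10% of its length had 39 to 51 reads with a median of 44, and 10 of them had more reads than CDC45. These peaks lie at the floor of the list, so their reads had little room to differ. AT3G25090 and AT3G25099 were named at the same peak.

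**Figure D1:**
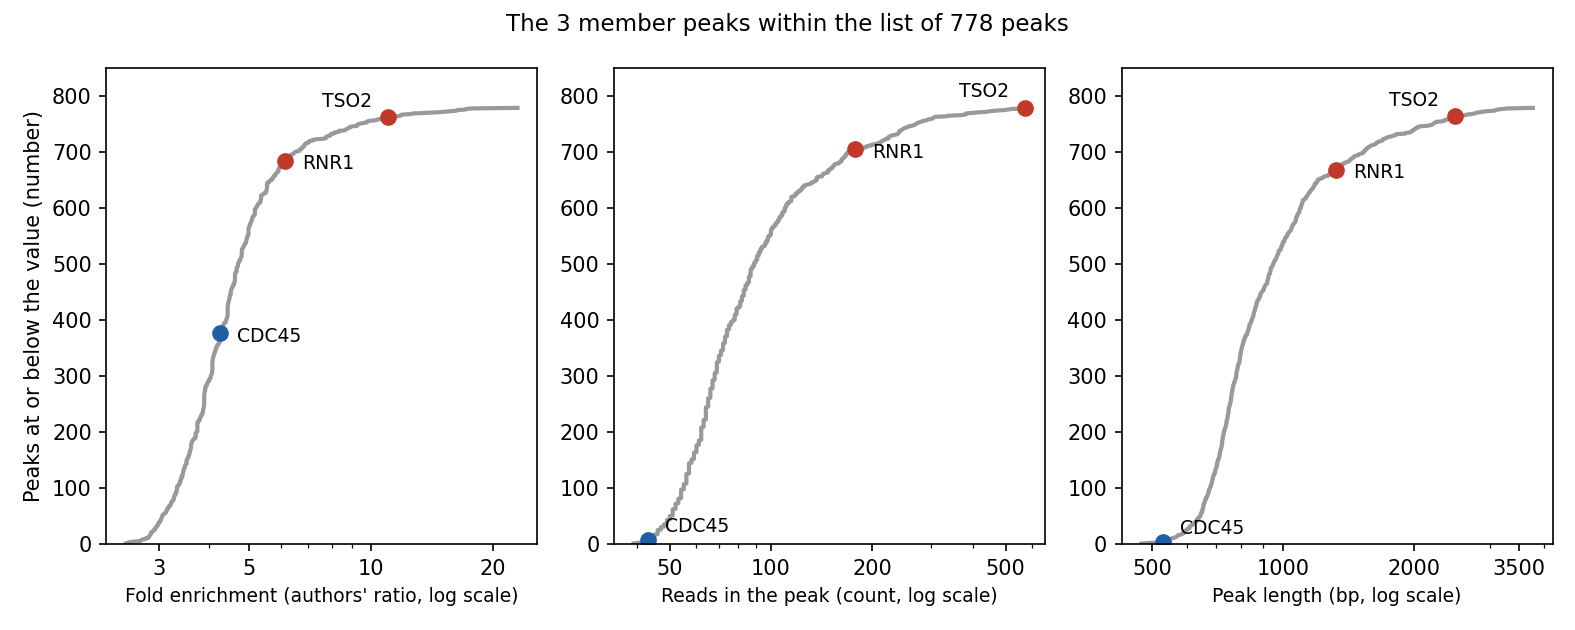
Cumulative number of peaks (vertical axis) at or below each fold enrichment, read count and peak length in bp (horizontal axes, log scale), with the grey line giving all 778 peaks and the points the 3 member peaks, red for nucleotide supply and blue for helicase. TSO2 and RNR1 sit high on each curve, at 11.05-fold and 6.16-fold, whereas CDC45 is near the middle by fold enrichment and at the foot of the curves for reads (43) and length (530 bp).

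Set against each other, the 3 peaks differed more in total reads than in density. TSO2 had 3.21 times the reads of RNR1 (exact conditional interval 2.71 to 3.82, counting error only) and 13.3 times those of CDC45 (9.75 to 18.6). Per kb the ratios were smaller. TSO2 was 1.71 times as dense as RNR1 (1.44 to 2.03) and 2.83 times as dense as CDC45 (2.07 to 3.95), and RNR1 was 1.65 times as dense as CDC45 (1.18 to 2.36). These intervals compare peaks within 1 library, take the peak edges as fixed and carry no replicate error. The members were chosen with earlier results known, so the intervals do not test a difference between the peaks. CDC45 at 81.1 reads per kb (58.7 to 109) was below the list's median of 88.6, and RNR1 at 134 reads per kb (115 to 155) was above it.

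The authors' false discovery rate did not order the 3 peaks in the same way. It was 1 for TSO2, the highest in the list, 0.140 for RNR1 and 0.149 for CDC45. Over the list its median was 0.147, its quartiles were 0.142 and 0.150 and its lowest value was 0.116. Multiplied by the peak's rank by Decibel Score, it gave 1 for TSO2, 18 for RNR1 and 91 for CDC45, each a whole number to within the file's rounding. The value of 1 belongs to the peak that ranks first by score, and what the column counts is not stated. The sources used here do not state how the column was made, and no peak was selected by it.

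Peak shape differed as well. The Summit column was read as the distance in bp from the peak's start, which the header does not state. On that reading the TSO2 summit lay 1974 bp into the peak and 521 bp before its end, at 79.1% of the length. Only 11 of 778 peaks had their summit further along and 21 had it further from the middle in either direction, so the TSO2 peak was among the most lopsided, with a long flank on the side of lower coordinates. The RNR1 summit, at 780 bp, was 58.8% along. The CDC45 summit, at 234 bp, was 44.2% along, and the quartiles over all peaks were 43.9% and 59.0%. No strand or transcript start of the build was used, so none of these positions is placed relative to a gene start.

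**Figure D2:**
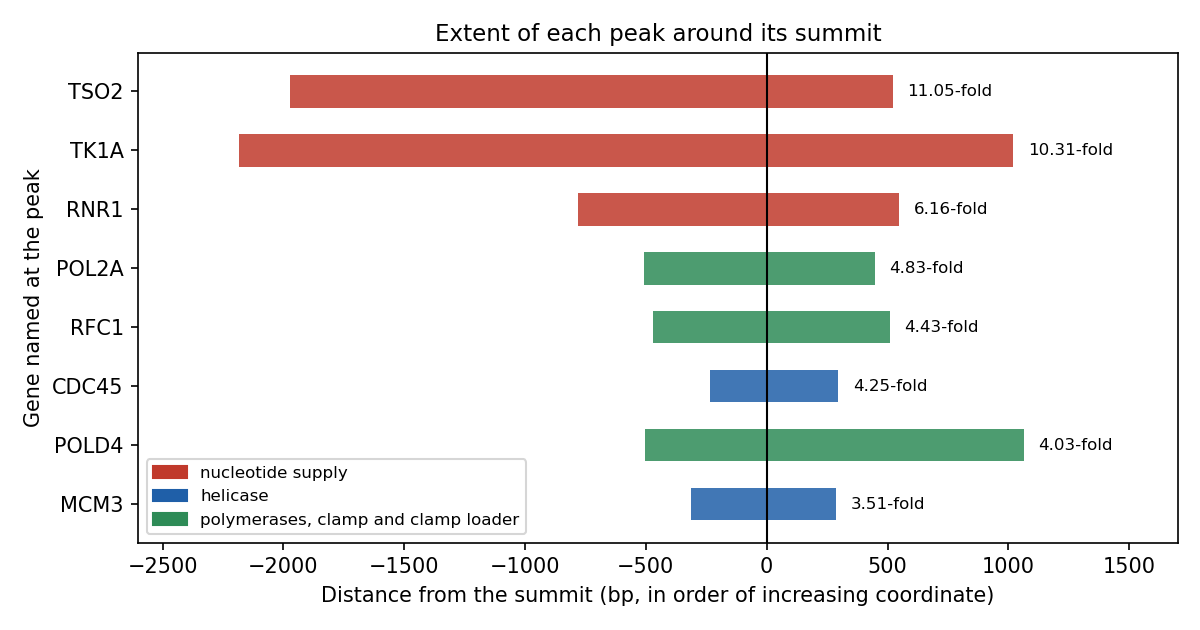
Extent in bp of the 8 peaks that name a gene of the replication lists, drawn around the summit (line at 0) in order of fold enrichment, with the authors' fold enrichment beside each bar and the colour giving the gene list. Bars run toward higher coordinates on the right; the TSO2 bar reaches 1974 bp to the left and 521 bp to the right, and the CDC45 bar 234 and 296 bp.

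Other listed peaks lay at varied distances from the 3 member peaks. The nearest listed peaks lay 37860 bp before and 40444 bp after TSO2, with 3.82-fold and 5.36-fold enrichment, both weaker than TSO2. Near RNR1 the closest peak was 44154 bp away and had 4.55-fold enrichment. On its other side the next was 452333 bp away, against a median gap of 84281 bp between neighbouring peaks. CDC45 had a closer and somewhat stronger neighbour, 11059 bp away at 4.79-fold, which names RIN4 (AT3G25070), an immune regulator, and AT3G25080. TSO2 and CDC45 are on the same chromosome, 835251 bp apart.

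The peaks most like each member were found by distance over log2 fold enrichment, log2 reads and log2 length, each scaled to unit spread over the 778 peaks. For TSO2 the nearest was the peak naming SMR7 (AT3G27630) with AT3G27610, AOX1C and AT3G27640, at 11.93-fold with 466 reads over 2207 bp. The next 2 were the peak of CP1 and AGL83, at 8.99-fold with 493 reads, and that of KRP6, RBP47B and DNF, at 12.69-fold with 414 reads. In the order by fold enrichment TSO2 stood between a peak of 11.06-fold naming AT1G51130 and one of 10.97-fold naming SMR4 (AT5G02220) and AT5G02210. These 5 peaks held from 142 to 493 reads.

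RNR1 was most like the peak of TFIIB, AT2G41620 and AT2G41640 (5.84-fold, 162 reads). The next 2 were the peak of PUM7, AT1G78140 and AT1G78150 (5.60-fold, 170.0 reads) and that of ZF2 and BUB3.1 (6.50-fold, 154 reads). By fold enrichment it stood between 6.17-fold, at AT2G38240 and AT2G38250, and 6.11-fold, at AT4G02110. CDC45 was most like the peak of BCAT-2 (4.28-fold, 44 reads), that of ERD5 (4.07-fold, 43 reads) and that of ABCI11 and AT5G14120 (4.07-fold, 42 reads). By fold enrichment CDC45 was tied at 4.25-fold with 11 other peaks, so its neighbours in that order are arbitrary picks among the ties. The 2 listed next to it, of ARFD1A, ARFD1B and NIMIN1 and of HA7, AT3G60328 and AT3G60340, had 57 reads each. All 5 peaks set beside CDC45 had at most 57 reads, but 3 of them were chosen for being alike in reads and length.

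RNR2A, the other functional small subunit and thus the closest relative of TSO2 in the set, was not named at any peak. In the order of loci along chromosome 3, the nearest named locus was AT3G23260, with 36 loci between, at a peak of 4.07-fold and 45 reads. ETG1 had 9 loci between it and the nearest named locus, AT2G40460 (4.58-fold, 55 reads). MCM2, a subunit of the helicase ring, had 8 between it and AT1G44835 (4.25-fold, 91 reads).

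The remaining helicase genes without a peak lay further from one in number of loci. MCM5, another ring subunit, had 164 loci between it and the nearest named locus, AT2G10735 (4.25-fold, 49 reads). Of those 164 loci 26 are protein-coding, against 30 of the 36 for RNR2A. MCM10 had 74 loci between it and MEF21 (3.88-fold, 47 reads), and on its other side the first named locus was RNR1 itself, with 108 loci between. No peak without a named locus lay between the named peaks on either side of any of these 5 genes (0 such peaks). Over 26075 protein-coding loci not named, the median number of loci to the nearest named one was 18 with quartiles of 7 and 38, and over these 5 genes the median was 36. The list holds called peaks only, so SOG1 signal below the calling limit at these 5 genes could not be seen.

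The wider set of replication genes contains the members and adds 5 peaks to their 3. Of 10 nucleotide supply genes, which include the 3 ribonucleotide reductase members, 3 were named, of 15 helicase genes 2, of 11 origin licensing genes 0 and of 19 genes of polymerases, clamp and clamp loader 3. In all, 8 of these 55 genes were named (14.5%), and 5 of the 47 that are not members (10.6%), against 4.99% of protein-coding loci. RNR2B (AT5G40942), counted among the nucleotide supply genes and not named, is a transcribed pseudogene in the gene table.

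Outside ribonucleotide reductase, the nucleotide supply gene with a peak was TK1A (AT3G07800), a thymidine kinase that returns thymidine to the nucleotide pool. Its peak lay at chromosome 3, 2488759 to 2491963 (TAIR10), and was shared with AT3G07810. It had 398 reads (exact Poisson interval 359.9 to 439) over 3204 bp, a fold enrichment of 10.31 and a Decibel Score of 799.8. TK1A ranked 23 by fold enrichment, 5 places below TSO2, and 3 by length. Only 5 other peaks, which do not include TSO2, were within 10% of its length. They had a median of 506 reads, 3 of them had more reads than TK1A and 1 a higher fold enrichment. At 124 reads per kb (112 to 137) TK1A ranked 66 by reads per kb, above the list's median of 88.6. TK1A was less dense than TSO2 and differed from RNR1 by less than counting error (ratio to RNR1 0.926, interval 0.774 to 1.11). TK1B, DUT1, THY1, THY2 and the dCMP deaminase gene DCD (AT3G48540) were not named.

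Among the helicase genes beyond the members, MCM3 (AT5G46280), a subunit of the ring, was named at a peak nearly as small as that of CDC45. It lay at chromosome 5, 18773532 to 18774132 (TAIR10), with 601 bp, 45 reads (exact Poisson interval 32.8 to 60.2) and 3.51-fold enrichment, and was shared with AT5G46270. Of the 71 other peaks within 10% of the length of the MCM3 peak, 60 had more reads and 60 a higher fold enrichment. Its density, 74.9 reads per kb, did not differ from that of CDC45 beyond counting error (CDC45 over MCM3 1.08, interval 0.697 to 1.68). The other 13 helicase genes, among them MCM4, MCM6, MCM7 and the 4 GINS subunit genes PSF1, PSF2, PSF3 and SLD5, were not named.

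Downstream of the helicase, 3 genes of the DNA synthesis machinery had peaks of 4.03-fold to 4.83-fold, near the list's median of 4.33-fold, but of different lengths. POLD4 (AT1G09815), a small subunit of polymerase delta, was the only locus at its peak, with 4.03-fold enrichment. With 187 reads over 1568 bp it ranked 74 by reads and 72 by length, ahead of RNR1 in both. RFC1 (AT5G22010), the large subunit of the clamp loader, was also alone at its peak, with 4.43-fold and 105 reads. POL2A (AT1G08260), the catalytic subunit of polymerase epsilon, shared a peak of 4.83-fold and 96 reads with AT1G08230 and ADT6. The clamp genes PCNA1 and PCNA2 and the origin genes of the ORC, CDC6 and CDT1 families were not named.

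The 3 nucleotide supply peaks thus ran from 6.16-fold to 11.05-fold and the 3 peaks of the synthesis machinery from 4.03-fold to 4.83-fold. The 2 helicase peaks ran from 3.51-fold to 4.25-fold. The nucleotide supply peaks did not overlap the others in fold enrichment or Decibel Score. Of all 778 peaks, 87.8% were below RNR1, the lowest of them, in fold enrichment and 83.4% in score. The genes were chosen with earlier results known, and 7 of the 10 nucleotide supply genes were not named. In reads the nucleotide supply peaks (178 to 572) overlapped the synthesis machinery peaks (96 to 187) through POLD4 and RNR1. The median over all 778 peaks was 4.33-fold and 75 reads over 837 bp. By length the groups were not separate either, since POLD4 (1568 bp) was longer than RNR1 (1327 bp). TSO2, RNR1 and CDC45 are 3 of these 8 peaks, all are of 1 library, and the order was not tested.

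**Figure D3:**
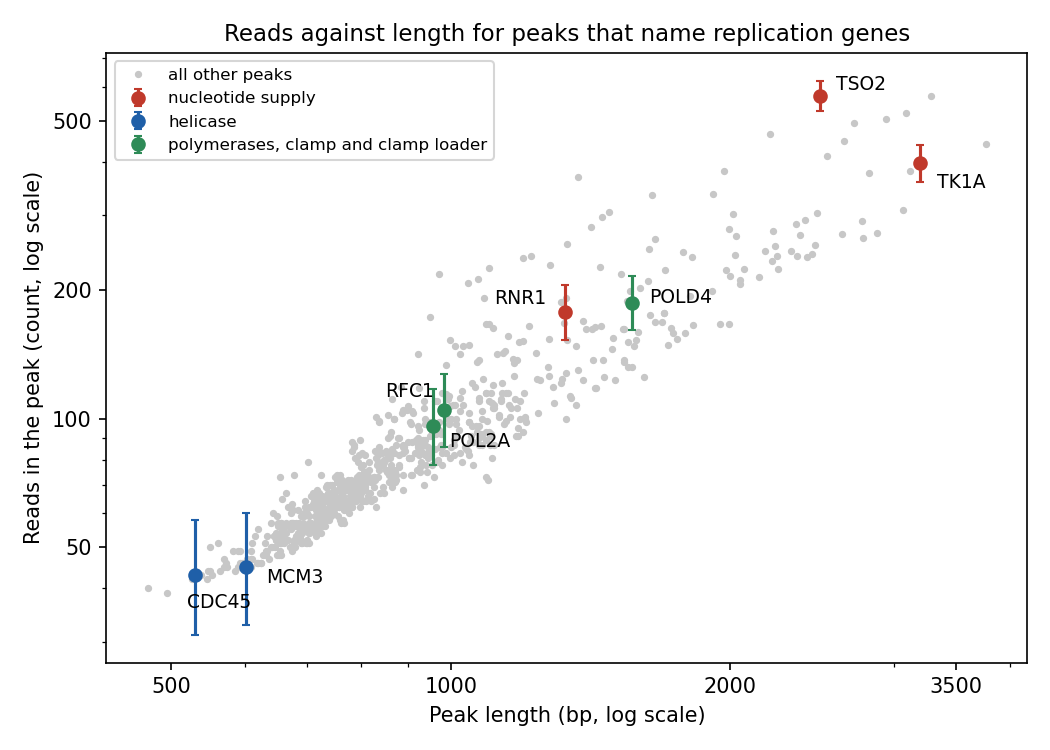
Reads in each peak (vertical axis, count, log scale) against peak length in bp (horizontal axis, log scale) for all 778 peaks in grey, with coloured points for the 8 peaks that name a replication gene and bars for exact 95% Poisson intervals of counting error. TSO2 lies above the grey cloud at its length, TK1A is among the longest peaks, and CDC45 (43 reads) and MCM3 (45 reads) lie at the lower left.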

How the data were processed

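ChIP-seq peaks of 1 tagged, zeocin-treated library were analysed, while the untagged mock library's values were not analysed here. CASAVA 1.8.2 and TAIR10 are named in the submitters' processing notes. The sources used here do not state the aligner, the peak caller, its control and thresholds, or how genes were assigned to peaks. Per the file headers, the deposited values are a read count per peak, a fold enrichment, a score called Decibel Score and an FDR. The deposited fold enrichment values are a ratio of unstated denominator, and the formula of the deposited Decibel Score is not stated. The deposited FDR values were calculated by the authors before deposit, on a linear (not log) scale, by a method that is not stated. The peak ranked first by Decibel Score had the highest FDR, so the FDR was not read as a q-value. All the deposited values are the authors' own and were used only to describe and rank peaks within the list. Lines with the same coordinates (1645 in all) were merged into 778 peaks. For 517 peaks the stated length counts both end bases and for 261 it is 1 bp shorter.

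Loci were matched to a TAIR10.1 gene table (1483 of 1513), used only for names, gene classes and gene order. Reads carry exact 95% Poisson intervals and read ratios exact conditional intervals, for counting error only. The code was tested on simulated peaks (Python 3.11.15, SciPy 1.17.1). Members and gene lists were chosen with earlier results of these data known. Text names all members, all loci at their peaks, list genes with a peak, the peaks adjacent by fold enrichment and the 3 most alike. COM1, RIN4 and the locus pair tied with TSO2 in reads were named after their values were seen, as were the list genes without a peak. The planned search of promoters for the CTT(N)7AAG site was not run, as no sequence was used here.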

Additional observations from a re-analysis of the deposited data

How the results depend on the processing

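Of 42 values recomputed under other settings, 20 stayed within 1.5 times (counts) or within the binomial interval of the original value. The other 22 moved beyond that. The binomial interval treats peaks, or base pairs for the summit, as independent draws, so it served as a cut-off and not as an error of a rank or position. By the rule for counts, a fall from 3 named members to 2, the loss of CDC45, was counted as staying. Some of the 20 had little or no room to move. The origin licensing count was already 0 in the full list, and the summit setting changed the length by at most 1 bp. With the 199 peaks that name a single locus, 0 members remained named (0 nucleotide supply, 0 helicase), as did 0 genes of the nucleotide supply list and 0 of the helicase list, since every one of those peaks names 2 or more loci. The 389 stronger peaks by fold enrichment, by Decibel Score or by reads each kept TSO2 and RNR1 and left 0 helicase members, as did the 194 strongest by fold enrichment. CDC45 ranked 403 by fold enrichment, 611 by score and 772 by reads, so these cuts restate the ranks and are no separate check. The helicase list also fell to 0 in the 389 and 194 strongest peaks by fold enrichment, and the polymerase list to 0 in the 194. The share of peaks with a lower value, 97.7% for TSO2 by fold enrichment, was 99.9% by Decibel Score and 99.7% by reads and by reads per length. For RNR1 it was 87.8% by fold enrichment, 83.4% by score, 90.4% by reads and 93.8% by reads per length. For CDC45 it was 46.8% by fold enrichment, 21.5% by score, 0.514% by reads, 20.6% by reads per length and 0.386% by length. Part of this follows from the construction, because reads track length. No paired analysis was possible because the groups hold 1 library each and values of 1 group alone were used, and leaving out a replicate was impossible for the same reason. The promoter motif search and its alternative were not run.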
